A study of Homo sapiens with 12 samples.

Results

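The 32 genes described here encode subunits of the nuclear RNA polymerases I, II and III, together with POLRMT, the mitochondrial RNA polymerase, and MAF1, a repressor of polymerase III. They were chosen by gene symbol, and each is represented by the probe set with the highest mean over the 12 arrays; that mean level selected the probe set and no group difference entered the choice. The 32 genes were among 19775 genes with a probe set of a single gene symbol, and all 32 passed the filter on low values that left 13225 genes for testing. The genes POLR2J3 and POLR2M were not analysed here. The arrays held total RNA of MDA-MB-231, a human breast cancer line of mesenchymal type, and the series asks how gene expression changes when YAP and TAZ, the transcriptional coactivators restrained by the Hippo kinases, are lost. The 3 groups of 4 arrays each were cells given siYAP/TAZ mix 1, cells given siYAP/TAZ mix 2 and cells given a control siRNA. Every culture received its siRNA at 33 nM on day 2 and new medium on day 3, and RNA was taken on day 4. The labels call the arrays biological replicas A to D, but all came from 1 cell line, so the p-values measure the spread between these cultures only.

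RNA polymerase I makes the large ribosomal RNA precursor in the nucleolus, polymerase II makes messenger RNAs and many small RNAs, and polymerase III makes transfer RNAs, 5S ribosomal RNA and other short RNAs. The enzymes have catalytic cores of related build: some small subunits are common to all 3, some are shared by polymerases I and III, and the rest are specific. Polymerases I and III supply the RNA of the translation machinery, and their output is known to follow growth signals and MYC. MAF1 holds polymerase III in check when nutrients or growth signals are low. POLRMT, unrelated to the nuclear enzymes, transcribes the mitochondrial genome.

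Sequence before the transcription start was matched by symbol in the RefSeq promoter table (GRCh38.p14) for 24 of the 32 genes. The genes without a match were POLR1E, POLR2G, POLR2I, POLR2J, POLR2K, POLR3D, POLR3G and MAF1, so the motif counts do not cover them. Within the 250 bases before the annotated start, the E-box CACGTG, the palindromic site read by MYC and related factors, was present in 3 of these 24 genes (12.5%), against 8.76% of 10667 tested genes and 6.34% of all 35116 promoters in the table. The letters GGAATG, the core of the site read by TEAD factors, were searched on both strands and found in 0 of the 24, against 9.47% of the tested genes and 11.9% of all promoters; the 2 motifs share no overlap. A match is a description of these letters only. The 3 E-box genes are printed because they moved in different directions, and POLR3GL because it is the member that rose most; they were picked after their values were seen. Each line gives the 250 bases before the start, 5′ to 3′ on the gene's strand, with the E-box in capitals. The stretches are chr19:45406394-45406643 (plus strand) for POLR1G, chr1:145823950-145824199 (plus strand) for POLR3C, chr10:78029516-78029765 (minus strand) for POLR3A and chr1:145964440-145964689 (plus strand) for POLR3GL.
POLR1G: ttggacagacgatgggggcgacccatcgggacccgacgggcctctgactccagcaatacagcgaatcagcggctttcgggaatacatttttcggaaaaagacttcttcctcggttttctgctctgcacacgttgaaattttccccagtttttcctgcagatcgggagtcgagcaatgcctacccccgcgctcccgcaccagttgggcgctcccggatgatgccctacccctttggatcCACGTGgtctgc
POLR3C: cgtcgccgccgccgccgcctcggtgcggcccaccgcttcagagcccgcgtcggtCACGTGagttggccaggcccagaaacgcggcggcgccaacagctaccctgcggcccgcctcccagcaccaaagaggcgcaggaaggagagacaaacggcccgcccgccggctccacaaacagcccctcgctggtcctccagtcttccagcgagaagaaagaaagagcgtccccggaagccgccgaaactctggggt
POLR3A: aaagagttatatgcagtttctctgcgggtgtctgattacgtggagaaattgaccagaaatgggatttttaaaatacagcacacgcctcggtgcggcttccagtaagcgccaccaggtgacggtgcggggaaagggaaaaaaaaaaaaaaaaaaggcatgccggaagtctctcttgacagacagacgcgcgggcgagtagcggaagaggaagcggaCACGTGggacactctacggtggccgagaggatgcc
POLR3GL: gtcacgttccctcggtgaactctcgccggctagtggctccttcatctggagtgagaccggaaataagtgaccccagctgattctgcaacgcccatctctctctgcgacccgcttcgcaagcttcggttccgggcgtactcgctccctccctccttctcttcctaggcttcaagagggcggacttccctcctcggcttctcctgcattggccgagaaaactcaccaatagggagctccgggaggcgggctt
The first base of the E-box lies at -12 in POLR1G, -35 in POLR3A and -196 in POLR3C, counted back from the start. POLR3GL holds neither motif in this window. The GC content of the 4 stretches is 57.2% for POLR1G, 69.6% for POLR3C, 52% for POLR3A and 60% for POLR3GL.

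The knockdown was visible in every array. YAP1 lay between 7.67 and 8.44 log2 with mix 1 and between 7.98 and 8.19 with mix 2, against 11.03 to 11.26 with control siRNA. WWTR1, the gene of TAZ, lay between 8.78 and 9.25 with mix 1 and between 8.83 and 9.07 with mix 2, against 11.27 to 11.49 with control siRNA. MYC was also lower, by a log2 difference of -1.27 (SE 0.08, limma adjusted p = 1.75e-09) with mix 1 and -0.94 (SE 0.08, adjusted p = 4.82e-08) with mix 2. Array medians lay between 5.69 and 5.78 log2, and for these and for the 3′ minus 5′ control probe sets of ACTB and GAPDH the smallest p between groups was 0.114 (exact permutation test, two-sided, where 4 arrays against 4 allow 0.0286). The mesenchymal markers VIM, CD44 and AXL were bright, all 3 above the filter value. Below it lay CDH1 of epithelial cells, PTPRC of leukocytes, CDH5 of endothelial cells, and COL3A1 and DCN of fibroblasts. Above that value were 3 of 4 epithelial markers (EPCAM, KRT8 and KRT18) and 2 of 3 leukocyte markers (CD3D and CD14). So were 2 of 3 endothelial markers (PECAM1 and VWF) and 2 of 4 fibroblast markers (COL1A1 and PDGFRB). The epithelial KRT18, at means of 12.978 with mix 1, 12.905 with mix 2 and 12.883 with control siRNA, was brighter than CD44 (11.963, 11.93 and 12.223). The mean log2 level over the 3 mesenchymal markers ranged from 12.80 to 12.87 with mix 1 and from 13.03 to 13.06 with mix 2, against 13.21 to 13.27 with control siRNA, with AXL at means of 12.13 and 12.83 against 13.24. Over the 4 epithelial markers it ranged from 9.35 to 9.38 with mix 1 and from 9.58 to 9.71 with mix 2, against 9.22 to 9.30 with control siRNA. Over the 4 fibroblast markers it ranged from 6.43 to 6.58 with mix 1 and from 6.52 to 6.67 with mix 2, against 5.62 to 5.80 with control siRNA. Over 3 leukocyte markers it ranged from 5.45 to 5.59 with mix 1 and from 5.77 to 6.12 with mix 2, against 4.62 to 5.18 with control siRNA. Over 3 endothelial markers it ranged from 5.91 to 6.10 with mix 1 and from 5.69 to 5.95 with mix 2, against 5.21 to 5.44 with control siRNA. The part of these shifts in the results below was not tested.

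Most polymerase genes were lower after knockdown, and a few of polymerase III moved the other way. With mix 1, 26 of the 32 genes were called lower and 3 higher than with control siRNA, and 3 were not called (limma, adjusted p under 0.05). Of all tested genes, 32.3% were called lower and 34.8% higher in that comparison. With mix 2, 24 were called lower, 3 higher and 5 not called, where 31.9% of all tested genes were lower and 36.7% higher. The median log2 difference of the 32 genes was -0.65 with mix 1 and -0.70 with mix 2, beside medians of 0.005 and 0.03 over all tested genes. The arrays of mix 1 lay wholly below the control arrays for 26 genes and wholly above for 3. Those of mix 2 lay below for 24 and above for 2. The share of all tested genes with arrays separated in this way was not counted, so these counts have no background beside them. Both comparisons share the 4 control arrays. Bulk arrays cannot tell fewer cells that express a gene from less RNA per cell.

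**Figure D1:**
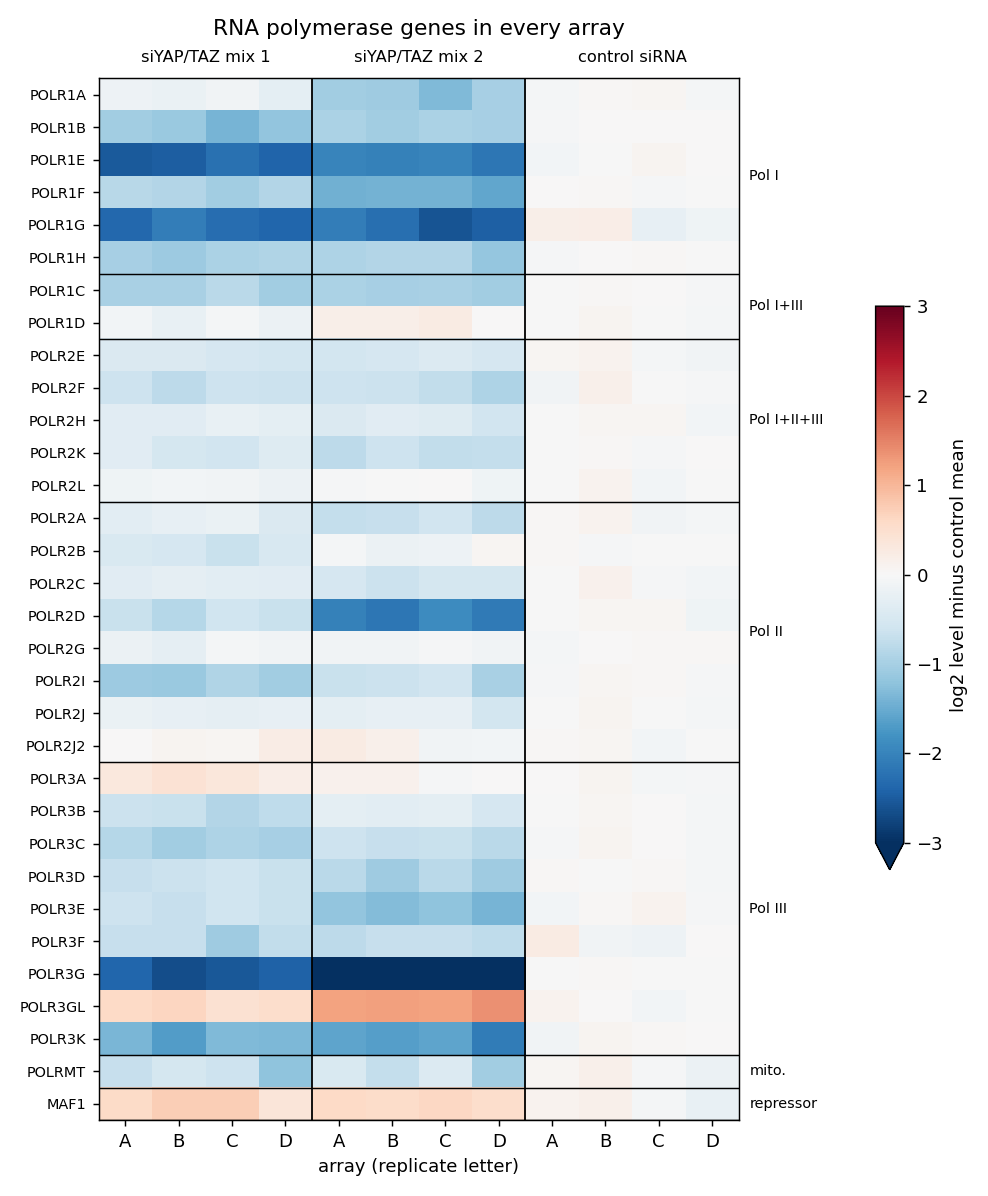
Log2 level of each of the 32 genes (rows, by polymerase) in each of the 12 arrays (columns), minus the gene's mean in control arrays; colours stop at 3 log2 in both directions. Blue fills the mix 1 and mix 2 columns for the Pol I rows, except POLR1A under mix 1, which is near the control level. The red rows are POLR3GL and MAF1, with a paler POLR3A under mix 1.

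The specific subunits of polymerase I fell together: all 6 were called lower under both mixes, with median log2 differences of -1.08 for mix 1 and -1.29 for mix 2. The largest falls were in POLR1E and POLR1G, the heterodimer (PAF53 and PAF49) that binds the core and helps initiation and elongation. POLR1E read 7.37, 7.43, 7.66 and 7.48 log2 in replicates A to D with mix 1 and 7.91, 7.86, 7.91 and 7.73 with mix 2, against 9.82, 9.87, 9.98 and 9.90 with control siRNA. Both knockdown groups lay more than 1.5 log2 below every control array, and mix 1 below mix 2. The log2 difference was -2.41 (SE 0.07, adjusted p = 1.04e-12) with mix 1, 5.31-fold lower, and -2.04 (SE 0.07, adjusted p = 3.33e-12) with mix 2, 4.11-fold lower. POLR1G read 7.23, 7.51, 7.31 and 7.22 log2 with mix 1 and 7.52, 7.33, 7.00 and 7.14 with mix 2, against 9.77, 9.79, 9.33 and 9.46 with control siRNA. Here the mixes overlapped each other and neither reached the control range. The log2 differences were -2.27 (SE 0.12, adjusted p = 5.31e-10) and -2.34 (SE 0.12, adjusted p = 3.18e-10), and mix 2 minus mix 1 was -0.07, with a 95% interval from -0.33 to 0.19.

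The other polymerase I subunits fell less. POLR1B, the second largest subunit of the catalytic core, had log2 differences of -1.19 (SE 0.07) with mix 1 and -0.98 (SE 0.07) with mix 2. Its dimmer probe sets, described with the others, were not all called. POLR1H, the subunit that trims RNA in a paused enzyme, had -0.98 and -0.96 (SE 0.07 each). POLR1F, the stalk subunit that meets the initiation factor RRN3, had -0.91 and -1.47 (SE 0.06 each), so mix 2 lay below mix 1 by 0.56 (adjusted p = 1.50e-06). A dimmer probe set of POLR1F, described with the others, fell under both mixes without this distance between them. POLR1A, the largest subunit, differed most between the mixes in this class. It read 8.10, 8.05, 8.15 and 7.96 log2 with mix 1 and 7.20, 7.19, 6.93 and 7.24 with mix 2, against 8.19, 8.29, 8.31 and 8.20 with control siRNA. Mix 1 stood just under the lowest control array, and mix 2 well under both. In the fit, the log2 difference was -0.18 (SE 0.07, adjusted p = 0.0377) with mix 1 and -1.11 (SE 0.07, adjusted p = 3.64e-09) with mix 2. The mix 1 call was lost without control replicate B (adjusted p = 0.0855) or C (0.096) and without mix 1 replicate B (0.0708) or D (0.11), and with the replicate letter as a block (0.0542).

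**Figure D2:**
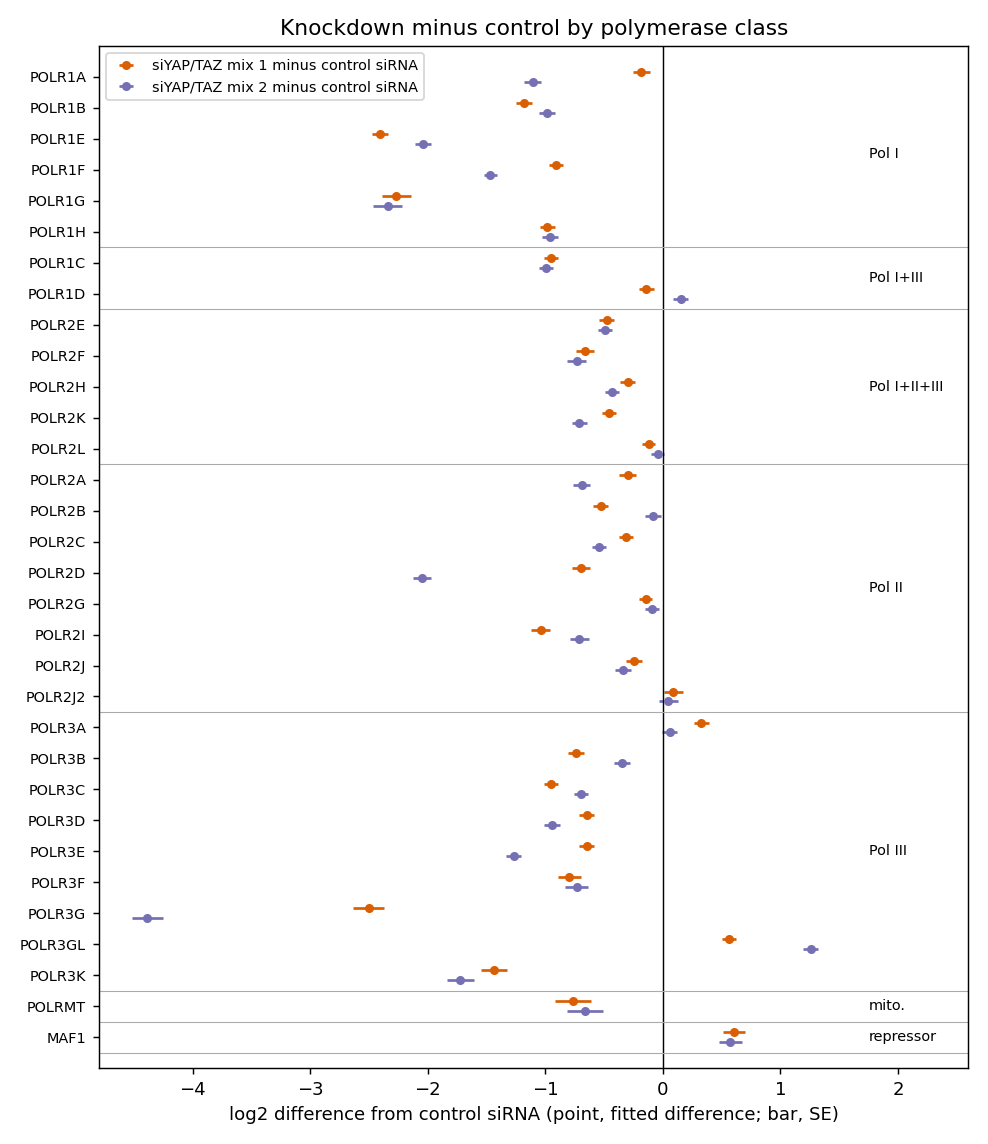
Log2 difference from control siRNA for each gene (rows, by polymerase), as the fitted difference with its SE; orange is mix 1 and purple mix 2. All 6 Pol I points lie left of 0, Pol II and the subunits of all 3 enzymes lie nearer to 0 apart from POLR2D and POLR2I, and POLR3G lies farthest left of the 32 at -4.39 for mix 2.

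POLR1C and POLR1D form the heterodimer on which polymerases I and III assemble, and they did not move alike. POLR1C ranged from 8.99 to 9.22 log2 with mix 1 and from 8.99 to 9.08 with mix 2, against 10.01 to 10.07 with control siRNA. Its log2 difference was -0.953 with mix 1 and -0.995 with mix 2 (SE 0.06 each), and no knockdown array reached a control array. POLR1D read 10.79, 10.65, 10.82 and 10.69 log2 with mix 1 and 11.05, 11.06, 11.12 and 10.89 with mix 2, against 10.87, 10.95, 10.87 and 10.82 with control siRNA. The ranges of both mixes touched the control range. Against control siRNA, the log2 difference was -0.14 (SE 0.06, adjusted p = 0.065) with mix 1 and 0.15 (SE 0.06, adjusted p = 0.045) with mix 2. Averaging all its probe sets turned the mix 2 difference to -0.15 (adjusted p = 0.0469), so its direction with mix 2 is unsettled although it counts among the 3 genes called higher.

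Of the 5 subunits common to all 3 enzymes, 4 were called lower under each mix, by less than most polymerase I subunits; the class medians were -0.46 and -0.49. POLR2F, which helps hold the clamp of the core, had log2 differences of -0.66 and -0.74 (SE 0.08 each). POLR2K, a small zinc-binding subunit, had -0.46 and -0.71 (SE 0.06 each), and mix 2 lay below mix 1 by 0.26 (adjusted p = 0.00304). POLR2E had -0.48 and -0.49, and POLR2H -0.30 and -0.43 (SE 0.06 for each). POLR2L, the small subunit that binds zinc near the assembly platform, ranged from 12.58 to 12.67 log2 with mix 1 and from 12.63 to 12.76 with mix 2, against 12.68 to 12.85 with control siRNA. Its log2 difference was -0.12 (SE 0.05, adjusted p = 0.0628) with mix 1 and -0.05 (SE 0.05, adjusted p = 0.496) with mix 2, and the 95% interval for mix 2 ran from -0.16 to 0.07. A dimmer probe set of POLR2L, described with the others, was lower under both mixes.

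Of the 8 specific subunits of polymerase II, 7 were called lower with mix 1 and 5 with mix 2, and 0 were called higher; the class medians were -0.31 and -0.44. POLR2A, the largest subunit, whose repeated tail recruits RNA processing factors, had a log2 difference of -0.30 (SE 0.07) with mix 1 and -0.69 (SE 0.07) with mix 2. POLR2C, its assembly platform subunit, had -0.31 and -0.55 (SE 0.06 each), and POLR2J, the partner of POLR2C, had -0.25 and -0.34 (SE 0.07 each). POLR2I, a subunit that aids accuracy and RNA cleavage, had -1.04 and -0.71 (SE 0.08 each). POLR2J2, from a family of near-identical POLR2J copies whose probe sets may not separate them, had 0.09 and 0.05 (SE 0.08 each), and neither was called.

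POLR2D, the stalk partner of POLR2G, was the polymerase II gene with the largest fall. It read 7.56, 7.38, 7.63 and 7.56 log2 with mix 1 and 6.21, 6.07, 6.34 and 6.12 with mix 2, against 8.23, 8.30, 8.30 and 8.10 with control siRNA. The 3 groups did not overlap. The log2 difference was -0.70 (SE 0.08, adjusted p = 9.77e-07) with mix 1 and -2.05 (SE 0.08, adjusted p = 6.86e-12) with mix 2, which is 4.13-fold lower, and mix 2 lay below mix 1 by 1.35 (adjusted p = 2.36e-09). Its partner POLR2G ranged from 11.59 to 11.80 log2 with mix 1 and from 11.74 to 11.81 with mix 2, against 11.79 to 11.89 with control siRNA. POLR2G had log2 differences of -0.15 (SE 0.06, adjusted p = 0.0312) and -0.09 (SE 0.06, adjusted p = 0.162), and the first was lost without any 1 of control replicates B, C and D or mix 1 replicates A and B (adjusted p from 0.0605 to 0.104).

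POLR2B, the second largest subunit, differed between the mixes in the other direction. It read 12.16, 12.12, 11.95 and 12.14 log2 with mix 1 and 12.56, 12.44, 12.46 and 12.69 with mix 2, against 12.66, 12.59, 12.62 and 12.62 with control siRNA. Mix 1 lay below every other array, and mix 2 overlapped control. In the fit, the log2 difference was -0.53 (SE 0.07, adjusted p = 5.22e-06) with mix 1 and -0.09 (SE 0.07, adjusted p = 0.28) with mix 2, with a 95% interval for mix 2 from -0.23 to 0.06.

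Polymerase III held both the largest fall and the largest rise among the 32 genes, and they belonged to alternative forms of the same subunit. POLR3G and its paralogue POLR3GL encode exchangeable subunits of the trimer that polymerase III uses for initiation; POLR3G is known from stem and tumour cells, while POLR3GL is found widely in differentiated tissue. POLR3G read 7.14, 6.85, 6.97 and 7.09 log2 with mix 1 and 5.17, 4.90, 5.61 and 4.83 with mix 2, against 9.50, 9.55, 9.50 and 9.51 with control siRNA. The 3 groups did not overlap, and the mix 2 mean of 5.13 lay below the filter value of 5.46, among the dimmest 40% of probe sets. Against control siRNA, the log2 difference was -2.50 (SE 0.13, adjusted p = 3.90e-10) with mix 1, 5.67-fold lower, and -4.39 (SE 0.13, adjusted p = 9.80e-13) with mix 2, 20.9-fold lower as read by this probe set. Since the mix 2 level lies so low on the scale, the size of that fall and its distance from mix 1 are uncertain.

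POLR3GL read 10.24, 10.27, 10.10 and 10.17 log2 with mix 1 and 10.84, 10.87, 10.85 and 11.00 with mix 2, against 9.73, 9.65, 9.54 and 9.61 with control siRNA. The 3 groups again did not overlap, with mix 2 highest. The log2 difference was 0.56 (SE 0.06, adjusted p = 1.28e-06) with mix 1 and 1.26 (SE 0.06, adjusted p = 1.58e-10) with mix 2, or 1.48-fold and 2.39-fold higher. For both paralogues mix 2 lay farther from control than mix 1, by -1.89 for POLR3G (adjusted p = 2.48e-08) and 0.70 for POLR3GL (adjusted p = 3.00e-07).

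**Figure D3:**
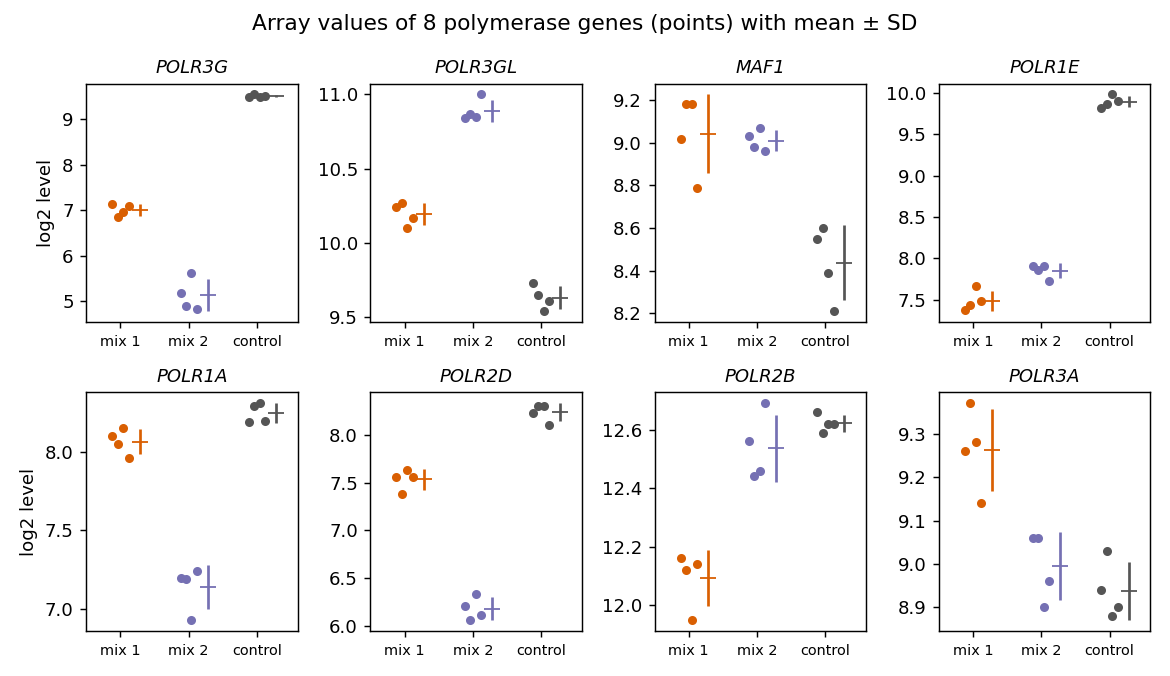
Log2 level of 8 genes in every array (points, replicates A to D from left to right), with the group mean and SD beside them; each panel has its own axis, which does not start at 0. POLR3G steps down and POLR3GL steps up at mix 1 and mix 2 relative to control, POLR1A and POLR2D are lowest with mix 2, and POLR2B is lowest with mix 1.

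The remaining polymerase III subunits were lower except POLR3A, and 7 of 9 were called lower under each mix (medians -0.74 and -0.73). POLR3K, the subunit for RNA cleavage and termination, read 8.98, 8.68, 9.04 and 9.01 log2 with mix 1 and 8.79, 8.72, 8.78 and 8.27 with mix 2, against 10.25, 10.44, 10.39 and 10.37 with control siRNA. Replicate D was the lowest of the mix 2 arrays and the mixes overlapped. Its log2 differences were -1.44 (SE 0.11, adjusted p = 2.72e-08) and -1.72 (SE 0.11, adjusted p = 3.21e-09). Mix 2 minus mix 1 was -0.29 (adjusted p = 0.0419), and this call was lost without mix 2 replicate D (-0.16, adjusted p = 0.115), without mix 1 replicate A (adjusted p = 0.0873), C (0.102) or D (0.0958) and without control replicate C (0.051) or D (0.0517).

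POLR3C and POLR3F, the other parts of the initiation trimer, had log2 differences of -0.95 (SE 0.06) and -0.80 (SE 0.10) with mix 1 and of -0.70 and -0.73 with mix 2. POLR3D and POLR3E, the pair that resembles a general transcription factor of polymerase II, had -0.65 and -0.65 with mix 1 and -0.94 and -1.27 with mix 2. Mix 2 lay below mix 1 for both, by 0.29 (adjusted p = 0.00221) and 0.62 (adjusted p = 1.06e-06). POLR3B, the second largest subunit, had -0.74 (SE 0.07) with mix 1 and -0.35 (SE 0.07) with mix 2. POLR3A, the largest subunit, read 9.26, 9.37, 9.28 and 9.14 log2 with mix 1 and 9.06, 9.06, 8.90 and 8.96 with mix 2, against 8.94, 9.03, 8.88 and 8.90 with control siRNA. Mix 1 lay above every control array and mix 2 overlapped them. In the fit, the log2 difference was 0.33 (SE 0.06, adjusted p = 3.69e-04) with mix 1 and 0.06 (SE 0.06, adjusted p = 0.451) with mix 2, whose 95% interval ran from -0.08 to 0.19. The E-box genes printed above thus fell (POLR1G, POLR3C) or rose with mix 1 (POLR3A).

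MAF1, the repressor of polymerase III, was higher under both mixes. It read 9.02, 9.18, 9.18 and 8.79 log2 with mix 1 and 9.03, 8.98, 9.07 and 8.96 with mix 2, against 8.55, 8.60, 8.39 and 8.21 with control siRNA. No knockdown array fell into the control range, and replicate D was the lowest array in each group. Against control siRNA, the log2 difference was 0.61 (SE 0.10, adjusted p = 5.49e-05) with mix 1 and 0.57 (SE 0.10, adjusted p = 8.77e-05) with mix 2, or 1.52-fold and 1.49-fold higher. Mix 2 minus mix 1 was -0.03, with a 95% interval from -0.24 to 0.17. POLRMT was lower under both mixes: it read 7.00, 7.15, 7.07 and 6.47 log2 with mix 1 and 7.22, 6.96, 7.28 and 6.64 with mix 2, against 7.75, 7.83, 7.65 and 7.51 with control siRNA. Replicate D was again lowest in each group, and the knockdown arrays stayed below the control arrays. The log2 differences were -0.76 (SE 0.15, adjusted p = 4.59e-04) and -0.66 (SE 0.15, adjusted p = 0.00142). A dimmer probe set of POLRMT, described with the others, was not called under either mix.

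The direct comparison of the mixes, both aimed at YAP and TAZ, called 8 of the 32 genes higher and 11 lower with mix 2 than with mix 1, with 28.7% of all tested genes higher and 25% lower. The median over the 32 genes was -0.04, beside 0.03 over all tested genes. The genes lower with mix 2 were led by POLR3G, POLR2D and POLR1A (-0.93, adjusted p = 7.72e-08), and those higher by POLR3GL, POLR2B (0.45, adjusted p = 5.41e-05), POLR3B (0.39, adjusted p = 2.51e-04) and POLR1E (0.37, adjusted p = 4.46e-04). The POLR1E call was lost with the mean of all its probe sets (0.08, adjusted p = 0.589). Under both mixes, the dimmer probe sets in that mean lay below the filter value of 5.46, where a distance between the mixes may not show. For POLR3G and POLR1A, the distance between the mixes was not seen on their dimmer probe sets above the filter value, described below. By class, 2 of the 6 polymerase I genes were higher and 2 lower, and of the 9 polymerase III genes 3 were higher and 5 lower.

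Probe sets of the same gene did not always give the same size. The 32 genes had 72 probe sets with a single symbol, and 22 genes had more than 1. Of the 40 probe sets that were not the brightest, 24 (18 genes) lay above the filter value; they and the brightest probe sets were compared in 1 limma fit over all probe sets with a single symbol, without the filter. With mix 1, 17 of these 24 made the same call as the brightest probe set, 4 were called where it was not, 3 were not called where it was, and 0 were called in the opposite direction. With mix 2 the counts were 18, 2, 4 and 0. In that fit POLR1D was called lower with mix 2 on 224857_s_at (-0.42, adjusted p = 0.00132), while its brightest probe set, 218258_at, was not called (0.15, adjusted p = 0.107). For POLR3G, 206654_s_at was lower by a log2 difference of -1.03 under both mixes (SE 0.16), so the fall is present but its size and the distance between the mixes rest on the brightest probe set, 206653_at. For POLR1A, 235280_at gave -0.64 and -0.66 and 222704_at gave -1.30 and -0.998 for mix 1 and mix 2, so the small change with mix 1 belongs to the brightest probe set, 228515_at. Mix 2 minus mix 1 was 0.31 on 222704_at (adjusted p = 0.0228), opposite to the brightest probe set. POLR2D gave the same pattern on 214144_at (-0.57 with mix 1, -2.06 with mix 2), and POLR2B did so on 201803_at (-0.58 with mix 1, 0.05 with mix 2). POLR1E fell on 231041_at too (-2.07 and -2.14), where mix 2 minus mix 1 was -0.06 (adjusted p = 0.852). Its means there, 5.288 with mix 1 and 5.225 with mix 2, lay below the filter value of 5.46, so a distance between the mixes may not show. POLR2L was lower on 202586_at (-0.80 and -0.75). POLR1F fell on 214729_at too (-1.12 and -1.19), where mix 2 minus mix 1 was -0.07 (adjusted p = 0.6925). Its distance between the mixes thus rests on the brightest probe set, 226784_at. For POLRMT, 203783_x_at was not called (-0.09 with mix 1, adjusted p = 0.589, and -0.1275 with mix 2, adjusted p = 0.421). The fall of POLRMT thus rests on its brightest probe set, 203782_s_at. For POLR1B, 220113_x_at was not called (-0.075 and -0.0975), while 233341_s_at (-0.93 and -1.20) and 1557331_at (-1.03 and -0.86) were lower under both mixes. POLR1G, POLR3GL and MAF1 had 1 probe set each.

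**Figure D4:**
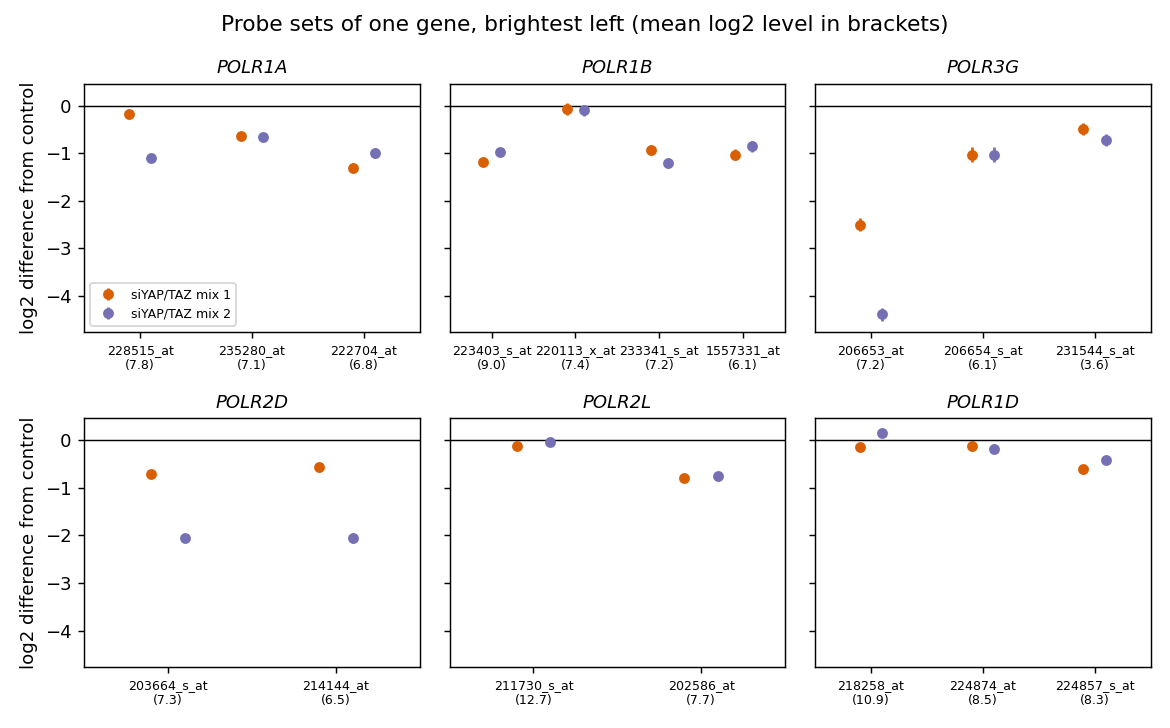
Log2 difference from control siRNA (point, with SE) for every probe set of 6 genes, brightest probe set left and mean log2 level in brackets; orange is mix 1 and purple mix 2. The probe sets of POLR2D sit at the same values, while those of POLR1A, POLR3G and POLR2L do not.

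Factors that load, assemble or help the polymerases were counted against the same shares of all tested genes, 32.3% lower and 34.8% higher with mix 1 and 31.9% lower and 36.7% higher with mix 2. Of 8 polymerase I initiation factors, 6 were lower and 2 higher with mix 1 (median log2 difference -0.39), and 7 were lower and 1 higher with mix 2 (median -0.42). TAF1A, a subunit of the promoter selectivity factor, had -1.76 (SE 0.08) with mix 1 and -1.32 (SE 0.08) with mix 2, and RRN3, which makes polymerase I competent to initiate, had -0.77 and -1.09 (SE 0.12 each). CAVIN1, known also as a polymerase I transcript release factor and a coat protein of caveolae, was slightly higher (0.22 and 0.21, SE 0.06 each). UBTF, which binds ribosomal DNA, was higher with mix 1 (0.64, SE 0.08) and lower with mix 2 (-0.54, SE 0.08); it lies outside the rule for named genes and was chosen after its values were seen. Of 18 polymerase III initiation and termination factors, 10 were lower and 0 higher with mix 1 and 9 lower and 1 higher with mix 2 (medians -0.27 and -0.21). SNAPC1, of the complex that reads small nuclear RNA promoters, had -1.36 and -1.34 (SE 0.07 each), and TBP, the TATA-binding protein used by all 3 enzymes, had -0.91 and -0.84 (SE 0.06 each).

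Of 28 tested polymerase II general transcription factors, 16 were lower and 6 higher with mix 1 and 15 lower and 8 higher with mix 2 (medians -0.26 and -0.29). TAF5 and GTF2F2, of the factors TFIID and TFIIF, had log2 differences of -1.30 and -1.33 with mix 1 and of -1.85 and -1.61 with mix 2. TAF12, also of TFIID, was higher by 0.69 (SE 0.10) with mix 1 and 1.41 (SE 0.10) with mix 2, and GTF2B, which places the polymerase at the start, by 0.46 and 0.51 (SE 0.08 each). Of 23 elongation and tail-modifying factors, 7 were lower (30.4%) and 2 higher with mix 1, and 5 were lower (21.7%) and 3 higher with mix 2 (medians -0.08 and -0.05), so the shares called lower did not exceed those of all tested genes. RPRD1A and RPRD1B, which bind the tail of POLR2A, had -0.66 and -0.27 with mix 1 and -0.82 and -0.62 with mix 2. Of 13 factors for polymerase assembly and import, 11 were lower and 0 higher with mix 1 and 8 lower and 1 higher with mix 2 (medians -0.55 and -0.42); GPN3, a GTPase for nuclear import of the enzymes, had -1.28 and -1.26, and RUVBL1, an ATPase of the chaperone complex, -1.40 and -0.86. Of 8 mitochondrial transcription factors, 7 were lower and 1 higher under each mix (medians -0.76 and -0.43). TFAM, which packs and activates mitochondrial DNA, had -1.905 and -1.003 (SE 0.06 each), MTERF3 had -1.35 and -1.12, and MTRES1 was higher (0.41 and 0.94).

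**Figure D5:**
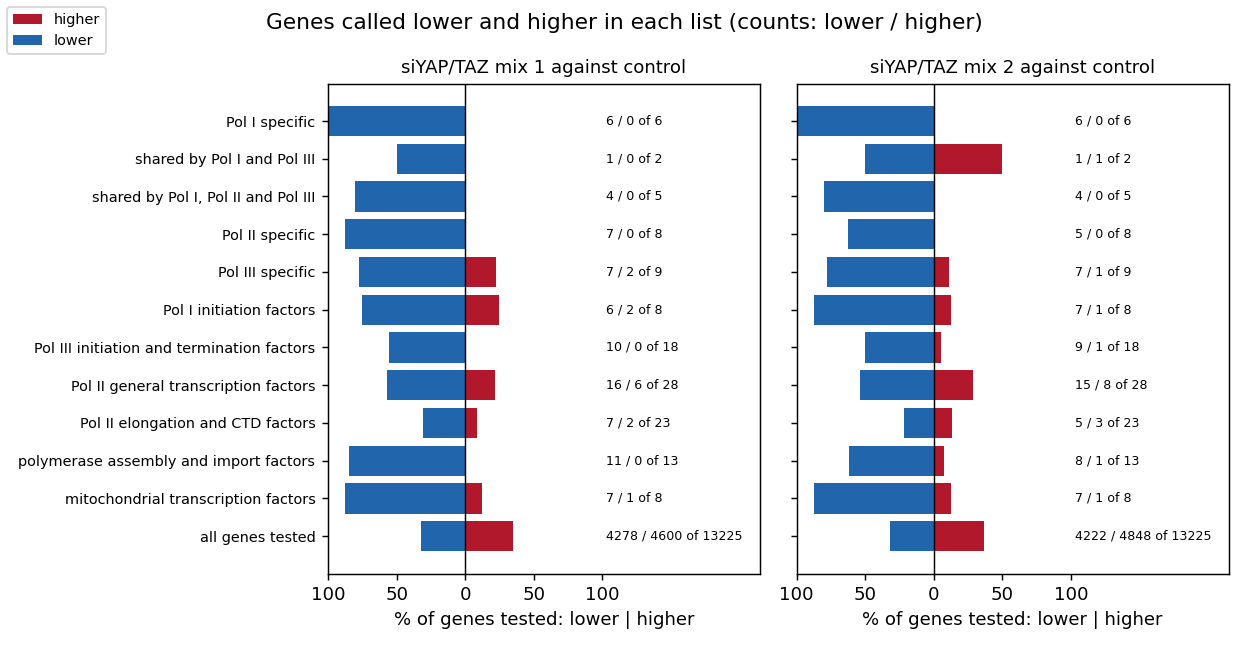
Share of tested genes in each list called lower (blue, to the left) or higher (red, to the right) than control siRNA for mix 1 (left) and mix 2 (right), with the counts; the last row is all 13225 genes tested. Pol I specific subunits reach 6 of 6 lower in both panels, and the Pol II elongation list, at 7 and 5 of 23, has shares called lower that do not exceed that of all genes.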

How the data were processed

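RNA of 12 cultures was hybridised to 12 Affymetrix U133 Plus 2.0 arrays. The values in the table that the authors deposited are log2 levels; per the submitters' processing notes they come from RMA. The software and its version were not given in the sources used here. RMA in its usual form gives all arrays 1 distribution, so a shift of all genes would not show. Of 54675 probe sets, 41097 had 1 symbol, 1801 several and 11777 none here. Gene IDs gave 41043 of the 41097 a current symbol from the RefSeq table of GRCh38.p14; without the 6 control probe sets among them (62 in all), 41091 were tested candidates.

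Probe sets with a mean above the 40th percentile (5.46 log2; 24650 probe sets) were kept, and the highest mean stood for each gene. Differences were fitted with limma 3.58.1 in R 4.3.3 (lmFit, 3 group means, 12 arrays, default eBayes, 9 residual degrees of freedom) and tested two-sided, with Benjamini-Hochberg adjustment over all 13225 genes and a threshold of 0.05. Errors are SE of this fit; those of group means are SD, n = 4. Array quality was compared by exact two-sided permutation tests (Python 3.11.15, scipy 1.17.1). The number of arrays limits the precision. The fit was tested on simulated data.

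The members and lists were chosen with earlier results of these data known. All members are named; from each factor list up to 2 genes per direction, called the same way under both mixes with the largest mean change, are named, as are YAP1, WWTR1, CCN1, CCN2 and MYC (CCN1, a classic YAP/TAZ target, had log2 differences of -3.71 with mix 1 and -1.55 with mix 2; CCN2, another, had -4.04 and -2.28). Pseudogenes were left out.

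The labels give replicate letters A to D but no shared batch. Deviations of same-letter arrays of mix 1 and control correlated across genes at 0.370, 0.251, 0.409 and 0.340, all above 0.1, but B matched A best; between mix 2 and control they were 0.119, 0.034, 0.048 and 0.212. Any pairing thus rests on the values, since no label states it, and the block is an alternative. Others tried were no filter, a filter at the 60th percentile, the mean of all probe sets, no shared probe sets, centred arrays, repeated quantile normalization, trend and robust eBayes, only the compared groups, and each array left out.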

Additional observations from a re-analysis of the deposited data

Results flagged for a closer look

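In 8 of 96 groups of 4 arrays, 1 array stood apart from the other 3 by more than Dixon's 95% critical value; chance alone gives about 1 in 20 groups. With mix 2, replicate D was low for POLR3K (8.27 log2, nearest array 8.72), POLR3B (9.41, nearest 9.62) and POLR1F (8.56, nearest 8.68). With mix 2, replicate C was low for POLR1A (6.93, nearest 7.19) and high for POLR2G (11.81, nearest 11.75). With mix 1, replicate B was low for POLR3K (8.68, nearest 8.98) and POLR2F (9.12, nearest 9.26), and replicate C was low for POLR3F (8.03, nearest 8.37). Of the 8, 3 were in mix 2 replicate D and 0 in the control arrays. The cause was not tested.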

How the results depend on the processing

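Leaving out each array in turn gave 24 to 28 genes lower and 3 higher with mix 1, 24 lower and 2 to 3 higher with mix 2, and 10 to 11 lower and 7 to 8 higher for mix 2 minus mix 1. The other settings gave 19 to 28 lower and 3 higher with mix 1, 17 to 25 lower and 2 to 3 higher with mix 2, and 8 to 11 lower and 5 to 8 higher between the mixes. The fewest genes called lower came from leaving out shared probe sets, which left 24 genes. The count between the mixes moved to 5 higher with the mean of all probe sets. That setting also turned 2 differences of mix 2 against control: POLR1D to -0.15 (adjusted p = 0.0469) and POLR3B to 0.0742 (adjusted p = 0.331); the other probe sets of POLR3B lie below the filter value, and those of POLR1D above it. It ended the mix 1 calls of POLR2A (-0.13, adjusted p = 0.0883) and POLR3B (-0.14, adjusted p = 0.078). With the replicate letter as a block, the counts were 26 lower and 3 higher with mix 1, 24 and 3 with mix 2, and 11 and 8 between the mixes; POLR1A with mix 1 was lost (adjusted p = 0.0542) and POLR1D with mix 1 gained (-0.14, adjusted p = 0.0461), and no other call changed. The call of POLR1D with mix 2 was lost under 11 settings (adjusted p from 0.0512 to 0.132), among them without control replicate A, C or D, mix 1 replicate A or D, or mix 2 replicate A, B or C. That of POLR1B between the mixes was lost under 6, among them when mix 1 replicate C was left out (adjusted p = 0.0565) and when replicate A (0.0546) or C (0.0513) of mix 2 was. With mix 1, POLR1D was gained when replicate C of mix 1 (adjusted p = 0.0394) or D of mix 2 (0.031) was left out, and POLR2L when replicate C of control (0.0458) or D of mix 2 (0.0394) was. Small differences near the threshold are limited by 4 arrays a group.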

Other observations

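POLR3C and POLR3GL lie on chromosome 1 with 8 protein-coding genes starting between them in the RefSeq table, yet POLR3C fell and POLR3GL rose under both mixes. The genes between them, chosen after their values were seen, did not share a direction. ITGA10, an integrin subunit that binds collagen, was higher by 3.81 log2 with mix 1 and 4.88 with mix 2. PIAS3, an inhibitor of STAT signalling, was higher by 1.14 and 0.80. RBM8A, a core protein of the exon junction complex, had log2 differences of -0.89 and -0.84. LIX1L was higher with mix 1 (0.61) and lower with mix 2 (-0.31). No test of shared position was made.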
